A study of Mus musculus with 2 samples.

Results

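The genes described here are 40 genes of DNA replication and the cell cycle, out of 21938 protein-coding genes in the GENCODE M21 annotation. They were taken as a named list: 20 replication factors, 8 cyclins, 4 cyclin-dependent kinases, 4 genes of the E2F and retinoblastoma group, and 4 inhibitors of the kinases. ATAC-seq, which maps accessible DNA by where the Tn5 transposase inserts, was measured in primary regulatory T cells of 1 mouse line. The line joins a Cre recombinase of the ERT2 type, placed under Foxp3, with YFP at the Rosa26 locus as a reporter. Per the labels, the donor was an adult male aged 4 months and the cells trace back to haematopoietic cells of bone marrow. Both libraries were technical replicates of 1 biological replicate and were pooled in the same deposited peak lists, so every value below describes 1 pool, without replicate error, without a second condition and without a test. The sorting of the cells and any activation of the Cre were not given in the sources used here. The depth is unknown, since the lists hold no read counts.

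Before a cell copies its DNA, the origin recognition complex (Orc1 to Orc6) binds replication origins, and Cdc6 and Cdt1 load the ring-shaped MCM helicase (Mcm2 to Mcm7) onto them. In S phase Cdc45 and the GINS complex turn that ring into the active helicase, and PCNA, the sliding clamp, holds the polymerases on the template. D-type cyclins with Cdk4 and Cdk6, then cyclin E with Cdk2, inactivate the retinoblastoma protein and free the E2F factors, which activate many replication genes, while cyclins A and B with Cdk1 drive entry into mitosis. The p21, p27, Ink4 and Arf products of the inhibitor genes hold this sequence back, and regulatory T cells are known to include both resting and dividing cells in the body.

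A gene was counted as having a promoter peak when a listed summit of a peak in the authors' IDR-thresholded list lay within 1 kb of a transcription start site (TSS) of any of its transcripts. IDR, the irreproducible discovery rate, scores how well a peak's rank repeats between replicate calls. The signal is an enrichment value at the summit, as deposited by the authors, and the −log10 p is their significance value for it. Both are used here only to describe and rank peaks within a list. Ranks are percentiles among the 11456 protein-coding genes with a promoter peak, and coordinates are 1-based on mm10. Promoter peaks were found for 6 of 6 T cell markers and 5 of 5 regulatory T cell markers, and for 0 of 5 B cell, 1 of 5 myeloid and 1 of 5 erythroid markers. Over all protein-coding genes the share was 52.2%. Presence of a peak and its signal differed. The regulatory T cell markers had signals of only 2.69 to 9.67 (median 5.52) and the T cell markers 4.56 to 17.2. The myeloid marker with a peak had 10.2 and the erythroid one 13.1. A low signal rank is thus also found at genes of the cell's own lineage.

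The promoter sequences that best show how these genes differ are given next, each of 300 bases from 250 before to 50 after a start, from RefSeq on GRCm38.p6. Capitals mark E2F words (TTTCCCGC, TTTGGCGC, TTTCGCGC or TTTGCCGC, on either strand) and the word TTTGAA of the cell cycle genes homology region, CHR, an element bound by MuvB complexes at mitotic genes. Cdk1 (chr10:69352863-69353162, minus strand) had the highest signal among the promoters with an E2F word, and Cdt1 (chr8:122567765-122568064, plus strand) the lowest. Ccnb2 (chr9:70421505-70421804, minus strand) had the highest signal with CHR words and no E2F word. Mcm6 (chr1:128359656-128359955, minus strand) was added, after the values were seen, for its 3 E2F words.
Cdk1: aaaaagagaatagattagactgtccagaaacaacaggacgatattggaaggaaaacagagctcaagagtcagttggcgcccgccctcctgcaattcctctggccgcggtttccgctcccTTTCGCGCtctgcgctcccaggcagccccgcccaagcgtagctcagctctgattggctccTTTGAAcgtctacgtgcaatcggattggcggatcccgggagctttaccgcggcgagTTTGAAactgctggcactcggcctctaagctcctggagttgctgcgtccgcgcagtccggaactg
Cdt1: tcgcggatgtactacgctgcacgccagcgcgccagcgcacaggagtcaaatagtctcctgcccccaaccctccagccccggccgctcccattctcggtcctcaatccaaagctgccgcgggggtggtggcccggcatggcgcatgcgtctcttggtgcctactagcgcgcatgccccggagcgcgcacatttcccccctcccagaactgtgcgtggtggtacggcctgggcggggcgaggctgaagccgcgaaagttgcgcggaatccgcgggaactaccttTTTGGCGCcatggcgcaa
Ccnb2: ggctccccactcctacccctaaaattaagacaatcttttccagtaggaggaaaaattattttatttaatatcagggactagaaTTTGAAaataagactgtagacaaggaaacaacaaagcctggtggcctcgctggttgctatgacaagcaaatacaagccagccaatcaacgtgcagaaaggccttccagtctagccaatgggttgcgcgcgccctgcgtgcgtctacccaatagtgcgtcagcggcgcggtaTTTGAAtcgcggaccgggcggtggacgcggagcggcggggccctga
Mcm6: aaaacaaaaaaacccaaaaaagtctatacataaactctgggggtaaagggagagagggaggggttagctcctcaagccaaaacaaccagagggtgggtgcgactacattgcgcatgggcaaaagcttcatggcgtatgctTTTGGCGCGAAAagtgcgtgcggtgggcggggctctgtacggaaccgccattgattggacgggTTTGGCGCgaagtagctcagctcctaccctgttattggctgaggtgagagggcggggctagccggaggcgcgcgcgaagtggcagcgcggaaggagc
In Mcm6 the first run of capitals is 2 E2F words, on opposite strands, that share 4 bases.

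The next sequences are from the inhibitors. Cdkn2a has one start that lay in a thresholded peak and one that did not, and both were chosen after the values were seen. The upstream start, that of the Arf transcript, is at chr4:89294570-89294869 on the minus strand, and the start of the p16 Ink4a transcript is at chr4:89282143-89282442 on the same strand. The Cdkn1a sequence, from the gene with no promoter peak in the thresholded list, is at chr17:29093519-29093818 on the plus strand.
Cdkn2a (Arf start): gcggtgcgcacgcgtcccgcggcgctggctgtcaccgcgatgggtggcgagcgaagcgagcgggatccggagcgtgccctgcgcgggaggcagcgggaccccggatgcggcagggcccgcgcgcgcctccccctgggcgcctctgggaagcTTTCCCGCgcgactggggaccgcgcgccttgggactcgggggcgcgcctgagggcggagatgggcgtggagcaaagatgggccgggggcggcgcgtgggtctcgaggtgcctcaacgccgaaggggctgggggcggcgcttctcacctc
Cdkn2a (Ink4a start): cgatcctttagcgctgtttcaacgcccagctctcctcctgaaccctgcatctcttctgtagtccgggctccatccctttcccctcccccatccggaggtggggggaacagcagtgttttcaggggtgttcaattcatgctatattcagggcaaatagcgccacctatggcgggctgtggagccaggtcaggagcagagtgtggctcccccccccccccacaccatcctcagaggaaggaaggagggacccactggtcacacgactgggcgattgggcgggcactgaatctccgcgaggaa
Cdkn1a: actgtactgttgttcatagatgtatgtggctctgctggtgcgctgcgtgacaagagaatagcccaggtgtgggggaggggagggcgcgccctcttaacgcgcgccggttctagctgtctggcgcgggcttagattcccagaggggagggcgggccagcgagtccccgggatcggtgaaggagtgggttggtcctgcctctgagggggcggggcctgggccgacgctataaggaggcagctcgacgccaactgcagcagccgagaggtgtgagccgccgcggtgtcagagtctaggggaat

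Of the 40 genes, 39 had a promoter peak, or 97.5%, against 52.2% of all protein-coding genes. The exception was Cdkn1a. All 20 replication factors, 8 of 8 cyclins, 4 of 4 kinases, 4 of 4 E2F and Rb genes and 3 of 4 inhibitors had one. In the longer pseudoreplicated list all 40 genes had a promoter peak, against 57.3% of all protein-coding genes. With only the annotated 5′ end of each gene in place of all its starts, 38 genes had one, against 48% of all protein-coding genes, and the genes without one were Ccnd1 and Cdkn1a. The median ratio of observed to expected CpG was 0.840 in the 41 matched promoter sequences of these genes, 0.793 in 10218 open promoters of protein-coding genes and 0.384 in all 32851 promoters of the table. The part of CpG content in the high share of open promoters was not tested.

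The promoter signals of these genes covered much of the range of all open promoters. The median signal was 18.4 over the 39 genes (interquartile range 13.9 to 22.4, full range 6.53 to 31.5), against 17.3 over all protein-coding genes with a promoter peak (13.0 to 21.7, full range 1.84 to 40.9). The median of the replication factors was 20.7 (range 10.9 to 30.3), that of the cyclins 16.7 (6.53 to 31.5), that of the kinases 15.2 (7.36 to 25.5), that of the E2F and Rb genes 16.0 (7.73 to 20.7) and that of the 3 inhibitors with a peak 9.33 (6.89 to 14.6), so the ranges overlapped. Of the 39 genes, 24 lay above the median signal of all protein-coding genes with a promoter peak, 17 of them replication factors. The median −log10 p was 453 over the 39 genes, against 320.4 over all those genes, and was 669.8 for replication factors. The peaks were of ordinary width, with a median of 1023 bp for these genes and 996 bp for all protein-coding genes with a promoter peak. The summit lay within 150 bp of the nearest start in 31 of 39 genes, against 77.3% of all protein-coding genes with a promoter peak, and upstream of it in 29 of 39, against 76.2%. Both shares are near the background.

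**Figure D1:**
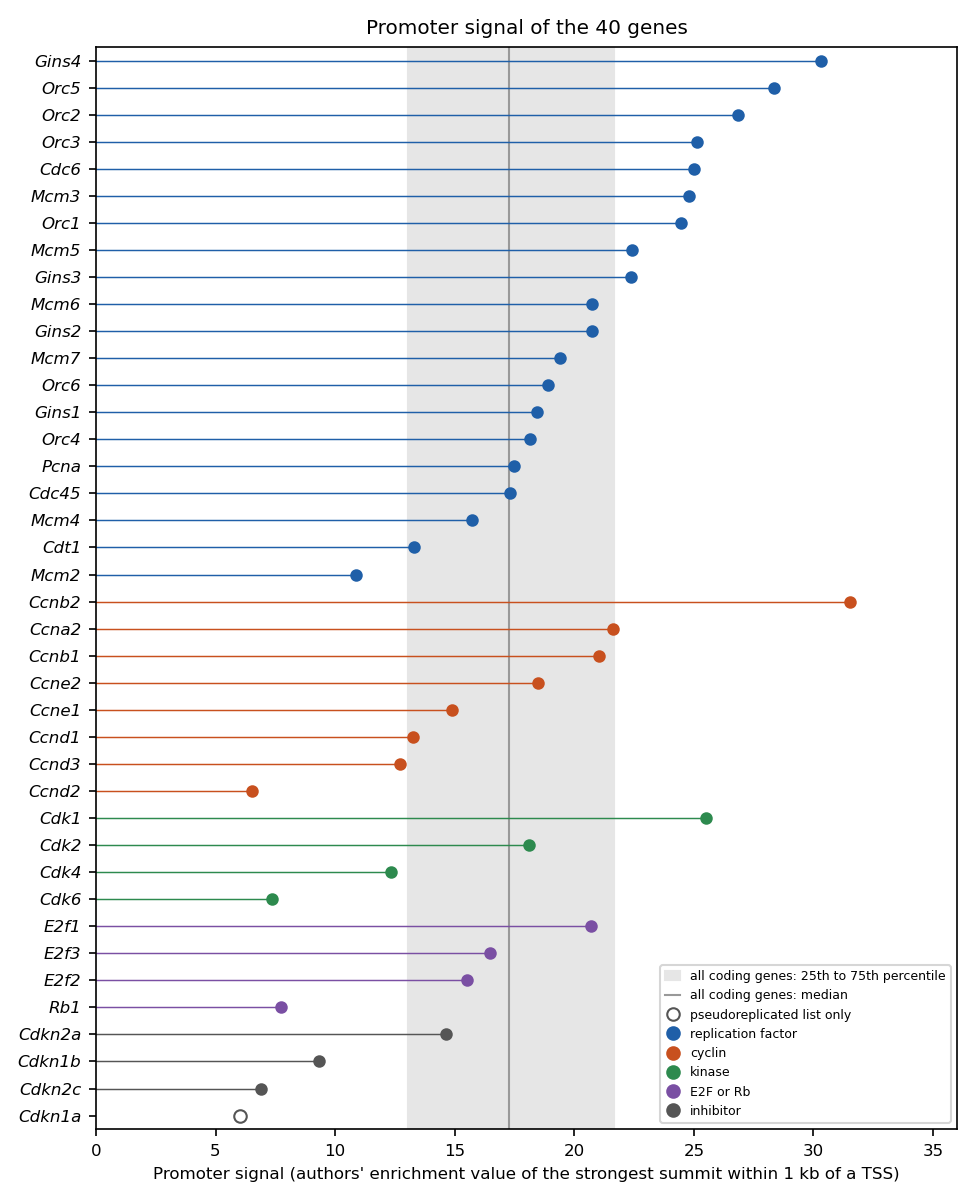
Promoter signal of the 40 genes (horizontal axis, the authors' enrichment value of the strongest summit within 1 kb of a TSS), ordered by signal within each class. Filled points are peaks of the thresholded list, the open point is Cdkn1a at 6.02 from the pseudoreplicated list, and the grey band and line give the interquartile range (13.0 to 21.7) and median (17.3) of all protein-coding genes with a promoter peak. Replication factors reach from 10.9 to 30.3, and no inhibitor reaches the line.

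The subunits of the origin recognition complex had the highest group of promoter signals among the replication factors. All 6 lay above the median of all protein-coding genes with a promoter peak in both signal and −log10 p, with a median signal of 24.8. Orc5 had a signal of 28.3 and a −log10 p of 764 at chr5:22549750-22550699, the 96.9th and 92.3rd percentiles. Orc2 had a signal of 26.9 and a −log10 p of 749 at chr1:58504415-58505306, the 94.2nd and 91.5th percentiles. Orc3 had a signal of 25.1 and Orc1, the subunit whose level varies through the cycle in human cells, 24.5. Orc6 at 18.9 and Orc4 at 18.2 were nearest to the median of 17.3.

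The loaders differed from each other. Cdc6 had a signal of 25.01 and a −log10 p of 453 at chr11:98907310-98908197, the 89.2nd and 67.7th percentiles, and its summit lay 112 bp upstream of the start. Cdt1, which geminin holds inactive outside G1, had a signal of 13.3 and a −log10 p of 237 at chr8:122567260-122568569, the 26.3rd and 37.4th percentiles, so it ranked in the lower part of all open promoters by both measures.

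The 6 genes of the MCM helicase ring are needed in equal numbers in one complex, and their promoter signals ranged from 10.9 to 24.8. Mcm3 had the highest signal at 24.8, followed by Mcm5 at 22.4, Mcm6 at 20.7, Mcm7 at 19.4 and Mcm4 at 15.7. Mcm2 had the lowest, with 10.9 at chr6:88898336-88898958, the 15.01st percentile. The −log10 p of all 6 lay above the median of all protein-coding genes with a promoter peak, from 385 for Mcm2 to 876 for Mcm5. Mcm4 had 694 there, above Mcm6 with 597 and Mcm7 with 511, so the order of the genes depended on which value was read.

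Among the partners that complete the active helicase, all 5 lay above the median signal. Gins4 had the highest signal of all 20 replication factors, 30.3, and with 1161 the highest −log10 p of the 39 genes, at chr8:23237237-23238041. Those values are the 98.7th and 99.5th percentiles. The other GINS subunits had signals of 22.4 for Gins3, 20.7 for Gins2 and 18.4 for Gins1. Cdc45, which joins GINS on the helicase, had 17.3, and Gins3 had the lowest −log10 p of the 5 genes, 241. The summit for Gins1 lay 617 bp upstream of its 5′ end, the farthest from a start among the replication factors. Pcna, the sliding clamp, had a signal near the median, 17.5, with a −log10 p of 906, the 96.9th percentile.

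The cyclins differed by type in promoter signal. The A- and B-type cyclins of S phase and mitosis all lay above the median of all protein-coding genes with a promoter peak. The D-type cyclins, which couple growth signals to the cycle, all lay below it. Ccna2, Ccnb1 and Ccnd1 were still inside the interquartile range of those genes, 13.0 to 21.7. Ccnb2 had a signal of 31.5 at chr9:70421292-70422086, the highest of the 39 genes and at the 99.3rd percentile, although its −log10 p of 401 was at the 61.2nd percentile. Ccna2 had a signal of 21.6 and a −log10 p of 696 at chr3:36571585-36572588, the 74.9th and 88.9th percentiles. Ccnb1 had a signal of 21.02 and a −log10 p of 386 at chr13:100785907-100786980, the 71.4th and 59.4th percentiles. The E-type cyclins lay between the other types, with 18.5 for Ccne2 and 14.9 for Ccne1.

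None of the 3 D-type cyclins lay above the median signal or the median −log10 p of all protein-coding genes with a promoter peak, and each had a different layout. Ccnd2 had 3 peaks near its starts, and the strongest of them, at chr6:127152212-127152768 and 410 bp upstream of the 5′ end, had a signal of 6.53, the 2.62nd percentile and the lowest of the 39 genes. Its −log10 p of 228 was at the 36.1st percentile. Ccnd3 had a signal of 12.7 at chr17:47593276-47593860, beside a start 88.4 kb inside the annotated gene, and 4.04 at its annotated 5′ end. The stronger peak had a −log10 p of 239.7, and its values are the 23.2nd and 37.9th percentiles. Both starts of Ccnd3 are in the RefSeq table too. Ccnd1 had no peak at its 5′ end in either list. Its only promoter peak, at chr7:144937531-144938291, lay 2246 bp into the gene, in an intron, 518 bp from the start of a shorter transcript, with a signal of 13.3 and a −log10 p of 74.2. That peak had a −log10 IDR of 1.75, the lowest of the 39, where the lowest value in the thresholded list was 1.30. Of its IDR inputs, 1 gave a −log10 p of 26.5 and the other 49.8.

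Among the kinases, the partners of the D-type cyclins lay below the median signal and the others above it. Cdk1, the mitotic kinase, had a signal of 25.5 and a −log10 p of 598 at chr10:69352322-69353366, the 90.9th and 82.2nd percentiles. Cdk2, the partner of cyclins E and A, had a signal of 18.1 and a −log10 p of 174 at chr10:128704462-128705294, the 54.9th and 26.6th percentiles, so it ranked higher by signal than by −log10 p. Cdk4 had a signal of 12.3 and a −log10 p of 349.8 at chr10:127063010-127064032, the 21.6th and 54.3rd percentiles, the reverse order. Cdk6 had a signal of 7.36 and a −log10 p of 121 at chr5:3343570-3344853, the 4.08th and 17.2nd percentiles. The strongest Cdk6 summit lay 3028 bp from the 5′ end, near starts inside the gene. The peak nearest to the 5′ end had a signal of 4.31. Its summit lay 0.752 kb inside the gene, in an intron, and its interval did not reach the 5′ end.

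**Figure D2:**
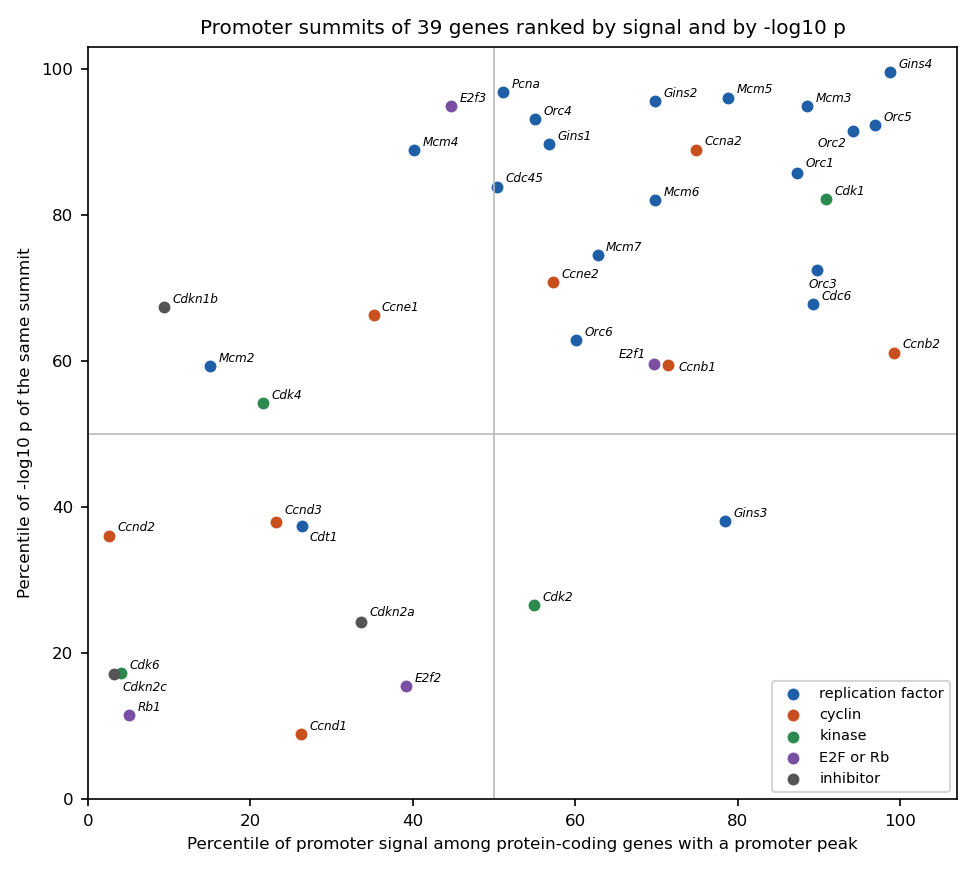
Percentile of the promoter signal (horizontal axis) against the percentile of the −log10 p of the same summit (vertical axis) for 39 genes, each among protein-coding genes with a promoter peak, with grey lines at the 50th percentile. Gins4 sits at the 98.7th and 99.5th percentiles, Rb1 at the 5.04th and 11.5th, and Cdkn1b, Mcm2 and Cdk4 have low signal percentiles with −log10 p percentiles above 50.

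The activating E2F genes and Rb1 also differed. E2f1 had a signal of 20.7 and a −log10 p of 387 at chr2:154569280-154570477, the 69.7th and 59.6th percentiles. E2f3 had a signal of 16.5 at chr13:29985946-29986726, the 44.8th percentile, but its −log10 p of 827 was at the 94.9th. E2f2 had a signal of 15.5 and a −log10 p of 112 at chr4:136171753-136172385, the 39.2nd and 15.4th percentiles. It had a second promoter peak at an internal start, with its summit 8.23 kb inside the gene and a signal of 14.5. Rb1, which encodes the retinoblastoma protein that E2Fs are held by, had a signal of 7.73 and a −log10 p of 88.1 at chr14:73324915-73326711, the 5.04th and 11.5th percentiles, in the widest of the 39 promoter peaks (1797 bp).

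The inhibitors had the lowest median promoter signal of the 5 classes, and none exceeded the median signal of all protein-coding genes with a promoter peak. Cdkn1b, which encodes p27, had a signal of 9.33 at chr6:134920022-134921027, the 9.37th percentile, with a −log10 p of 449 at the 67.4th. Cdkn2c, which encodes p18, had a signal of 6.89 and a −log10 p of 120.5 at chr4:109665205-109666573, the 3.19th and 17.1st percentiles. A second Cdkn2c peak at the 5′ end had a signal of 6.75. Cdkn2a had a signal of 14.6 and a −log10 p of 160.5 at chr4:89294298-89295689, the 33.6th and 24.3rd percentiles. This peak lay at the Arf start, 162 bp upstream of the annotated 5′ end. The Ink4a start, farther along the gene, had no thresholded peak, and the pseudoreplicated list gave it a signal of 4.41.

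Cdkn1a, which encodes p21, was the only one of the 40 genes without a thresholded promoter peak. The pseudoreplicated list held a peak there at chr17:29093514-29093990, with its summit 28 bp upstream of a start, a signal of 6.02 and a −log10 p of 52.1. Its −log10 IDR in the ranked list was 0.892, under the lowest value of the thresholded list (1.30), and the inputs gave a −log10 p of 17.5 and 38.99. A peak of low signal was therefore listed at this start, below the authors' threshold. With a promoter window of 2500 bp in place of 1 kb, all 40 genes had a thresholded promoter peak, against 54.3% of all protein-coding genes. The nearest thresholded peaks were one 8.83 kb upstream of the 5′ end with a signal of 14.3 and one in an intron, 4.58 kb inside the gene, with a signal of 16.5. The intronic peak lies at a start of AC167363.2, and it is the peak counted for Cdkn1a with the window of 2500 bp.

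Some promoter summits lay close to a start of another gene. The strongest promoter summit of 14 of the 39 genes lay within 1 kb of a TSS of another gene, against 34% of all protein-coding genes with a promoter peak. With protein-coding neighbours only, it was 9 of 39, against 22.4%. Over all 39 genes these shares were near the background, but 13 of the 14 were replication factors, including 6 of 6 origin recognition genes, and the other was Cdk2. No cyclin, E2F, Rb or inhibitor gene shared its summit. The protein-coding partners were Prkdc for Mcm4, Ap4m1 for Mcm7, Ufd1 for Cdc45, Abhd12 for Gins1, Prpf38a for Orc1, Rars2 for Orc3, Mbd5 for Orc4, Vps35 for Orc6 and Pmel for Cdk2. The partners of other biotypes were the pseudogene Gm20587 for Mcm3, the non-coding RNAs Gm10614 for Gins2, Gm15834 for Orc2 and 6030443J06Rik for Orc5, and the antisense RNA AV099323 for Pcna. The products of the coding partners include the catalytic subunit of the DNA-dependent protein kinase (Prkdc), a retromer subunit (Vps35), a splicing factor (Prpf38a) and a melanosome protein (Pmel). An accessible region shared by divergent starts does not show which of the genes is transcribed.

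Around the genes, in the gene body with 20 kb of flank at each end, the 40 loci held 156 peaks, of which 50 lay at the gene's own starts, 41 at starts of other genes and 65 farther than 1 kb from any start, here called distal. The median was 3 peaks per locus and 4.40 per 100 kb, against 2 and 2.35 over all protein-coding genes. Those sets are unlike: 10482 of all protein-coding genes had no promoter peak, against 1 of the 40. A gene's own promoter peaks count in its locus. No value over genes with a promoter peak only was computed, here or for the distal share that follows. At least 1 distal peak was found in 20 of the 40 loci, against 44.7% of all protein-coding genes. That share is near the background. It varied by class: 8 of 20 replication factors, 3 of 8 cyclins, 4 of 4 kinases, 3 of 4 E2F and Rb genes and 2 of 4 inhibitors had a distal peak. The distal peaks had a median signal of 10.85 (range 3.07 to 26.7), against 12.1 over the 20661 distal peaks of the list, and 29 of the 65 were intronic in the gene itself, 1 was exonic and 35 lay outside it.

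**Figure D3:**
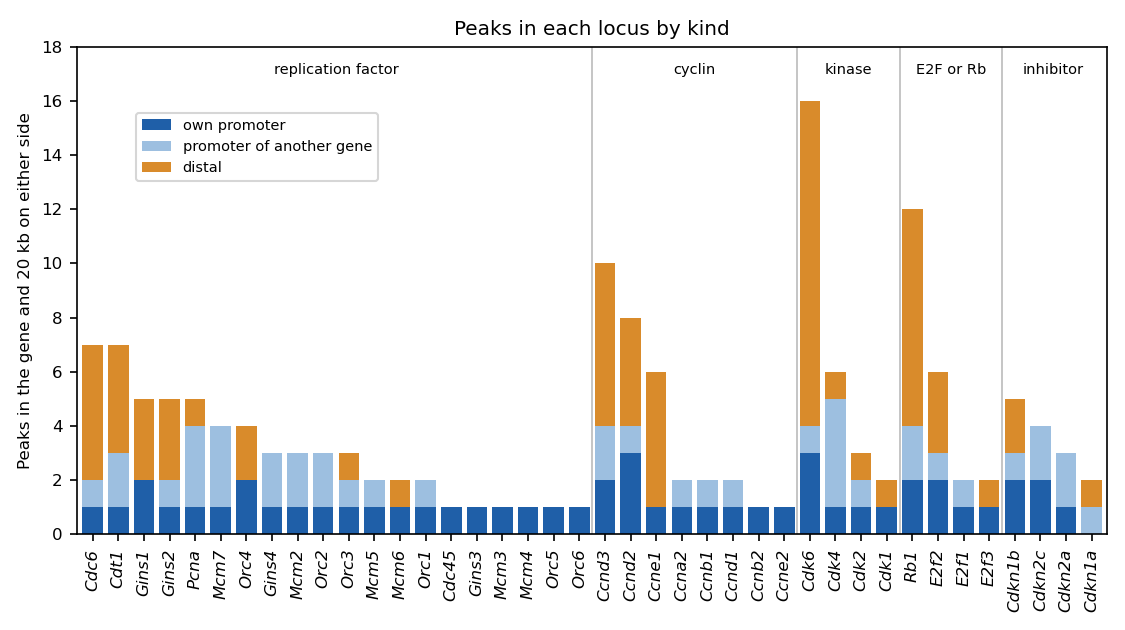
Number of thresholded peaks per locus, the gene with 20 kb of flank at each end (vertical axis), for each of the 40 genes, split into peaks at the gene's own starts, at starts of other genes, and distal peaks. Cdk6 (16), Rb1 (12) and Ccnd3 (10) have the most, and 8 genes have 1.

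The 4 loci with most peaks belonged to genes whose promoter signal lay below the median of all protein-coding genes with a promoter peak, and long genes have larger windows. Per 100 kb, Cdk6 had 6.97 peaks, Rb1 6.59, Ccnd3 7.43 and Ccnd2 11.9, against a median of 4.40 over the 40 loci. Cdt1 (15.4), Cdk4 (13.5), Cdc6 (12.5) and Ccne1 (12.1) had more per 100 kb than any of these. A link between promoter signal and peak number was not tested. Cdk6 had 16 peaks in 229.5 kb, of which 12 were distal and all 12 intronic. The strongest of these, at chr5:3383465-3384205 and 42.3 kb from the 5′ end, had a signal of 26.7, against 7.36 at its strongest promoter summit. Rb1 had 12 peaks in 182 kb, 8 of them distal, and the strongest lay 156 kb from the 5′ end, past the end of the gene, with a signal of 21.6. Its other peaks included those near starts of Lpar6, a receptor gene nested in an Rb1 intron, with signals of 10.4 and 7.25. The weaker of them also lay near an internal start of Rb1 and was counted with the gene's own starts. Ccnd3 had 10 peaks in 135 kb, with 5 intronic distal peaks between 3.08 and 28.8 kb from the 5′ end and signals of 3.77 to 16.4. Ccnd2 had 8 peaks in 67.0 kb, 4 of them distal with signals of 3.09 to 10.9. These 4 loci held 30 of the 65 distal peaks.

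Cdc6 and Cdt1, with 7 peaks each, tied for the fifth place and were the exceptions among the replication factors. Cdc6 had 5 distal peaks, the strongest 6.85 kb upstream with a signal of 18.3, and its other neighbour was the promoter of Rara, a retinoic acid receptor gene. Cdt1 had 4 distal peaks, all upstream, the strongest 11.2 kb away with a signal of 19.3. These loaders held 9 of the 20 distal peaks of the replication factors. The 6 MCM genes together had 1, 9.24 kb upstream of Mcm6. Ccne1 had 5 distal peaks among 6, the strongest with a signal of 18.8. E2f2 had an intronic peak 17.7 kb from the 5′ end with a signal of 26.4, above both of its promoter peaks, and E2f3 had 1 distal peak, 17.3 kb upstream, with 21.4. Gins1 and Gins2 had 3 distal peaks each, Orc4 and Cdkn1b 2 each, and Orc3, Pcna, Cdk1, Cdk2, Cdk4 and Cdkn1a 1 each.

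At the other end, 8 genes had a single peak in the whole window, the promoter peak: Mcm3, Mcm4, Cdc45, Gins3, Orc5, Orc6, Ccnb2 and Ccne2. The share of all protein-coding genes with a single peak was not computed. Their median was 2 peaks per locus, so a single peak need not be unusual. Gins4, Mcm2, Mcm5, Mcm7, Orc1, Orc2, E2f1, Ccna2, Ccnb1, Ccnd1, Cdkn2a and Cdkn2c had 2 to 4 peaks and no distal one. Ccnb2 thus combined the highest promoter signal of the 39 genes with no other peak within 20 kb.

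**Figure D4:**
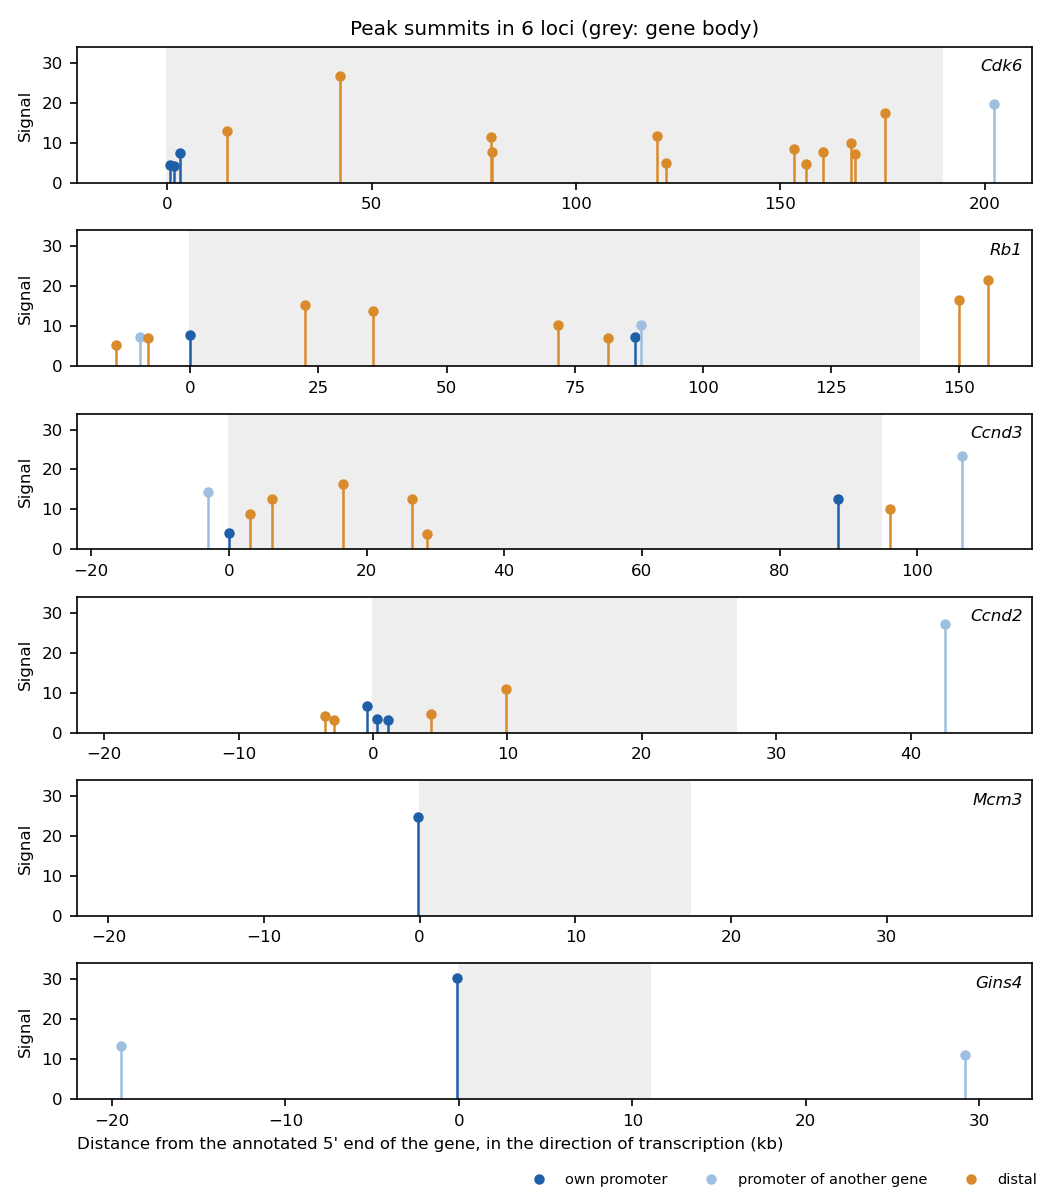
Peak summits in 6 loci, with the distance from the annotated 5′ end in kb (horizontal axis) and the signal (vertical axis, same scale in every panel), and the gene body in grey. Cdk6, Rb1, Ccnd3 and Ccnd2 show low promoter peaks and several distal ones, of up to 26.7 in Cdk6, while Mcm3 has 1 peak and Gins4 has a promoter peak of 30.3 with weaker peaks at starts of other genes.

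The 31 genes found in the RefSeq promoter table had 41 promoter sequences, 36 of them with a thresholded summit within 1 kb of the start. Not in the table were Mcm4, Gins1, Gins2, Gins4, Ccna2, Ccnd1, Ccnd2, Ccne2 and Rb1. An E2F word was present in 14 of the 41 promoters, or 34.1%, against 2.26% of all promoters of the table and 4.47% of the open promoters of protein-coding genes. These were 1 promoter each of Mcm3, Mcm5, Mcm6, Mcm7, Cdc6, Cdt1, Gins3, Orc1, Orc3, Cdk1, Cdk2, E2f2, E2f3 and Cdkn2a. Thus 9 of the 16 replication factors in the table had an E2F word and 0 of the 4 cyclins in it did. The cyclins Ccna2, Ccnd1, Ccnd2 and Ccne2 could not be searched. With only 4 cyclins and a share of 4.47% in open coding promoters, a count of 0 does not set cyclins apart. Of the ring's genes, Mcm3, Mcm5, Mcm6 and Mcm7 had more than 1 word. Which genes hold a word depended on the window. In 200 bp centred on the strongest promoter summit, Mcm2 (2 words) and E2f1 (1 word) also had one, while Mcm3, Cdc6, Cdt1, Gins3, E2f2, E2f3 and Cdkn2a had 0. All 19 E2F matches in the promoter table lay inside the promoter peak, and so did 10 of 10 CHR, 6 of 6 ETS, 43 of 46 CCAAT and 63 of 71 SP and KLF matches. The sequences span 300 bases at starts, and promoter peaks had a median width of 1023 bp, so a match inside a peak says little. The centre was within 100 bp of the strongest summit in 12 of 19 E2F, 3 of 10 CHR, 5 of 6 ETS, 33 of 46 CCAAT and 37 of 71 SP and KLF matches. For neither position was a share over other open promoters computed. In Cdkn2a the word was at the Arf start, the open one, and the Ink4a start printed above had none.

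The other motifs were nearer to their backgrounds. The CHR word TTTGAA was in 7 promoters, or 17.1%, against 17.9% of all promoters and 11.1% of open coding ones. That share is near that of all promoters. It is above that of open coding ones, the closer match since 36 of the 41 were open, but rests on 7 promoters. The word was found in Mcm2, Gins3, Cdc45, Ccnb2, Cdk1, E2f2 and E2f3. It occurred 2 times in Cdc45, Ccnb2 and Cdk1, and in the sequences above the second match of Ccnb2 and of Cdk1 lies beside the start. CCAAT, the box bound by NF-Y, was in 25 promoters (61.0%), against 37.4% of all promoters and 38.7% of open coding ones. Of its 46 matches, 33 began between 100 bp upstream and 50 bp downstream of the start. That span makes up much of the 300-base sequence, and no share over other promoters was computed. GGGCGG, the SP and KLF box, was in 80.5%, against 35.7% of all promoters and 67.4% of open coding ones. CCGGAAG, the ETS core, was in 14.6%, against 8.86% of all promoters and 20.8% of open coding ones. All words were searched on both strands. Besides the overlaps of E2F words with each other in Mcm5 and Mcm6, an E2F word overlapped CCAAT by 1 base in Mcm7. A match is a description of the letters and not of binding, and promoters of 1 gene can overlap.

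**Figure D5:**
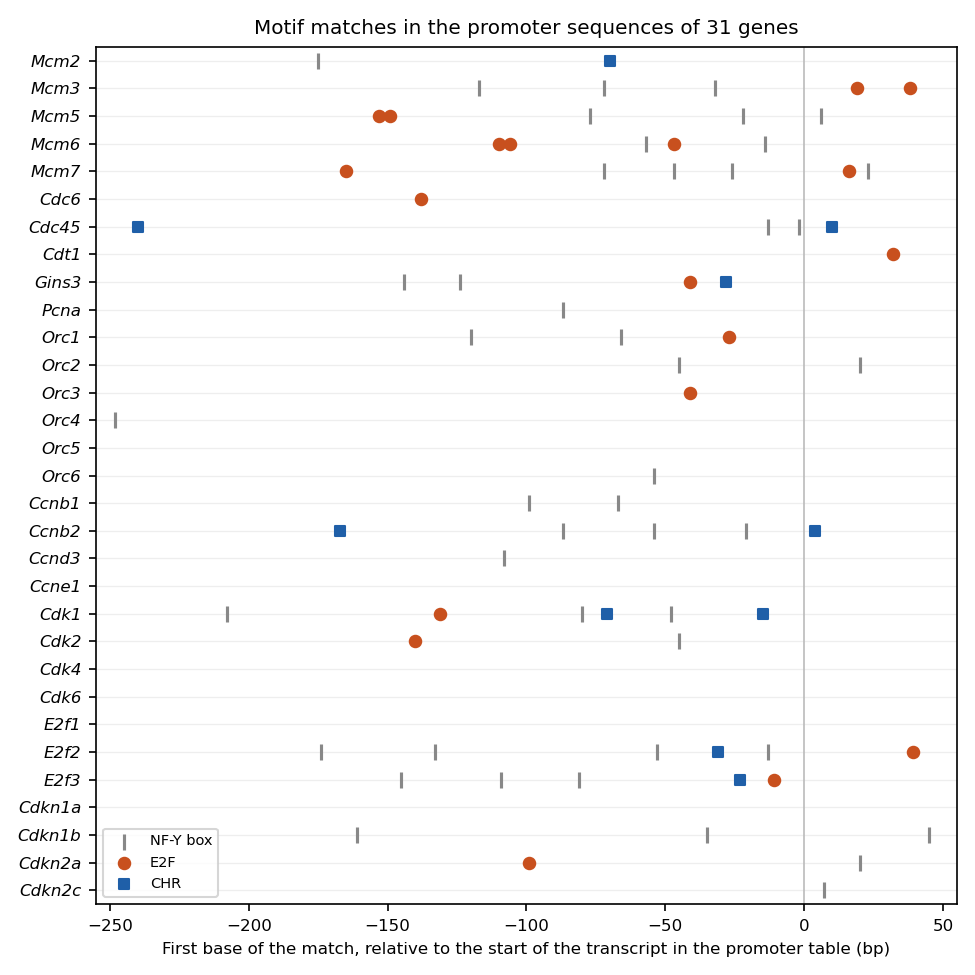
Positions of E2F words, CHR words and NF-Y boxes in the promoter sequences of 31 genes (rows, all starts of a gene on 1 row), with the first base of each match relative to the start in bp on the horizontal axis. E2F words sit in 14 rows, most of them replication factors. None of the 4 cyclin rows has one, too few to set cyclins apart, and Ccna2, Ccnd1, Ccnd2 and Ccne2 are not shown. NF-Y boxes sit in 22 rows, mostly between 100 bp upstream of the start and the start.

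Other genes of the same pathways, in lists that hold none of the 40, also had open promoters. A promoter peak was found for all 73: 26 of DNA synthesis, 12 of origin licensing and firing, 15 of the E2F, Rb and MuvB group, 17 of mitotic control and 3 further kinase inhibitors, against 52.2% of all protein-coding genes. The median signal was 19.9 over the 73 genes, with 23.5 for mitotic control, 21.04 for DNA synthesis, 16.6 for the inhibitors, 16.2 for origin licensing and firing and 16.0 for the E2F, Rb and MuvB group, against 17.3 over all protein-coding genes with a promoter peak. The highest signals were 35.5 for Mcm10 and 30.1 for Mcm8 in licensing and firing, 34.3 for Cdc25c and 30.1 for Ccnf in mitotic control, 32.7 for Mybl2 and 25.1 for E2f4 in the E2F group, 29.9 for Rfc2 and 28.1 for Rrm1 in DNA synthesis, and 19.97 for Cdkn2b and 16.6 for Cdkn1c among the inhibitors. The lowest signals, of genes chosen after their values were seen, were 5.49 for Tk1 (thymidine kinase, in DNA synthesis), the 1.40th percentile, and 7.08 for Mcmbp, a protein that binds MCM subunits. Mybl2 encodes B-Myb, which acts with MuvB at mitotic genes, and Cdc25c a phosphatase that activates Cdk1.

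In the authors' reproducibility run the promoter peaks of the 39 genes had a median −log10 IDR of 3.65, against 3.41 over all protein-coding genes with a promoter peak. The ratio of the −log10 p of the first input to that of the second ranged from 0.532, in Ccnd1, to 1.27, with a median of 0.959, and 38 of the 39 were within 1.5 times. The sources used here do not say which reads each input holds.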

How the data were processed

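ATAC-seq peak lists of 1 pool of both libraries were used as the authors deposited them. Per the file listings, the lists are on mm10 and come from an alignment that the libraries share. Names and versions of the aligner and peak caller, and any shift of read ends, were not given in the sources used here. The deposited lists give, per summit, a signal, which is a ratio (a fold enrichment whose reference is not stated), a −log10 p and, in the ranked list, a reproducibility score, the −log10 IDR. The thresholded list held 34610 peaks and the pseudoreplicated list 58871. No column of another sample was present.

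A summit was the interval start plus its offset. Genes and starts came from GENCODE M21 on GRCm38, the assembly of mm10, and 201 of 201 promoter sequences compared equalled the genome. A locus was the gene with 20 kb of flank at each end. Members and lists were chosen with earlier results of these data known. Every gene is named. Position, signal, −log10 p and rank are given for the 3 replication factors and cyclins of highest signal, all other classes and the 5 loci with most peaks. Outside the list, the named genes are those that share a summit and the 2 of highest signal per pathway list. Tk1 and Mcmbp were added for their low signals, and Lpar6, Rara and AC167363.2 as genes with a start at a peak in a locus. Python 3.11.15, pandas 2.3.3, numpy 2.4.6, pysam 0.24.0, samtools 1.23.1 and matplotlib 3.10.9 were used, and the functions were tested on simulated data. No p-value was computed, because genes do not replicate a condition.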

Additional observations from a re-analysis of the deposited data

How the results depend on the processing

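Of 38 alternatives over 13 values, 35 left the value within 1.5 times of the reported one. Several of these values are counts of genes with a promoter peak, at or near their maximum, for which that limit is wide. A fall from 39 to 31 genes counts as within it. The median number of peaks per locus, 3 with a flank of 20 kb, was 1.5 with a flank of 5 kb (1 over all protein-coding genes) and 5 with a flank of 50 kb (3 over all protein-coding genes), since the window itself changes. An E2F word was in 14 of 31 genes with the promoter table and in 9 of 30 with 200 bp windows at the strongest promoter summit, against 3.22% of all such windows, and the cause was not tested. With a minimum signal of 13.2, the median over all thresholded peaks, 31 genes had a promoter peak, against 38.6% of all protein-coding genes, and the genes without one were Ccnd2, Ccnd3, Cdk4, Cdk6, Cdkn1a, Cdkn1b, Cdkn2c, Mcm2 and Rb1. With a minimum −log10 p of 115, the median over those peaks, 37 did, against 44.1%, and the genes without one were Ccnd1, Rb1 and Cdkn1a. A distance of 500 bp to the other gene's start and a distal limit of 2500 bp were chosen after seeing the data, and gave 13 shared promoters, against 29.8% of protein-coding genes with a promoter peak, and 19 loci with a distal peak, against 38.3% of all protein-coding genes. Neither library could be left out and no paired analysis was possible because the lists pool both libraries. The unknown depth limits what the absence of a peak can show.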
